A study of Mus musculus with 9 samples.

Results

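Secreted Wnt antagonists were followed by name through the RNA sequencing of phosphate-treated MC3T3-E1 cells. The set holds 9 of the 55416 genes in the count table: *Sost* and its relative *Sostdc1*, the Dickkopf genes *Dkk1*, *Dkk2* and *Dkk3*, the secreted frizzled-related genes *Sfrp1*, *Sfrp2* and *Sfrp4*, and *Wif1*. They were matched by gene symbol. MC3T3-E1 is a mouse pre-osteoblastic line from calvarial bone with a wild-type genotype, and it was driven toward osteocyte-like cells for 27 days in medium with 10 mM β-glycerophosphate (BGP), 50 µg/ml ascorbic acid and 0.1 µM dexamethasone. The methods of the study withdraw BGP for the last part of this period, whereas the sample labels do not mention a withdrawal. The differentiated cells then received 4 mM BGP, an organic phosphate, or 4 mM NaHPO4, an inorganic phosphate given as a mixture of both sodium salts, or no addition (Control) for 16 h. Phosphate of the basal medium was present in all 3 conditions, and all 3 had gone through the same differentiation. Each condition had 3 libraries, and the labels do not say whether these came from separate cultures, so that p-values measure only the spread between these libraries, which may be technical.

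Wnt ligands bind a Frizzled receptor together with the co-receptor LRP5 or LRP6, which stabilizes β-catenin and, in bone, favors osteoblast formation and activity. Secreted antagonists act at this first step. Sclerostin, the product of *Sost*, is made mainly by mature osteocytes and binds LRP5 and LRP6 with help of the anchoring receptor LRP4; Dickkopf proteins 1 and 2 bind the same co-receptors. WIF1 and the secreted frizzled-related proteins instead capture the Wnt ligands. Loss of sclerostin causes high bone mass, and antibodies against it are used to treat osteoporosis.

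Total counts were between 21390839 and 28234404 per library, with the NaHPO4 libraries among the deepest, and 1 count in a library stood for 0.0351 to 0.0467 on the CPM scale. CPM is the count divided by library size, here after TMM scaling, which corrects for depth and composition, and levels are given as mean ± SD over 3 libraries. The osteoblast markers summed to between 97080 and 117100 CPM in every library, and the osteocyte markers *Dmp1*, *Phex*, *Mepe*, *Pdpn*, *Fgf23* and *Sost* all had counts. Markers of osteoblasts and of osteocytes were thus both present. Of the markers of other cells, 0 of 3 endothelial genes reached 10 counts in every library of a condition, and they summed to at most 0.187 CPM. Of 6 adipocyte genes only *Fabp4* did, and the list summed to 12.4 to 16.2 CPM in Control, 13.1 to 14.6 in BGP and 9.97 to 14.3 in NaHPO4. Of 6 macrophage and osteoclast genes *Ctsk* and *Csf1r* did, with sums of 289 to 296, 274.5 to 286 and 249 to 263 CPM in the same order, nearly all of it *Ctsk*. Of 5 chondrocyte genes *Col2a1* and *Sox9* did, with sums of 248 to 306, 339 to 445.5 and 185 to 264 CPM. *Cfd*, *Matn1* and *Kdr* had 0 counts in all 9 libraries.

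The members fell into 3 ranges of expression. On the scale of CPM per kilobase of exon, which allows genes to be compared, *Wif1* stood highest at 398 ± 11.8 in Control, rank 39 of the 24337 genes with a count and a known length. *Sfrp2* followed at 105 ± 6.78 and *Dkk3*, a divergent Dickkopf, at 29.7 ± 1.04. The libraries of these 3 genes did not overlap with one another in any condition. A wide step of 44.3-fold separated *Dkk3* from *Sost* at 0.671 ± 0.0174, *Sostdc1* at 0.639 ± 0.131 and *Dkk2* at 0.545 ± 0.0781, neighbors that overlapped in Control and in BGP. At the bottom were *Dkk1* at 0.0345 ± 0.0326, *Sfrp4* at 0.0112 ± 0.0194 and *Sfrp1* at 0.00300 ± 0.00520, whose libraries overlapped as well. With NaHPO4 the order of the middle range differed, because *Sost* at 0.206 ± 0.0383 lay below *Dkk2* at 0.489 ± 0.0752 without overlap. *Wif1* alone supplied 68.5 to 70.4% of the counts of all 9 members in the Control and BGP libraries and 63.8 to 65.7% in the NaHPO4 libraries.

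**Figure D1:**
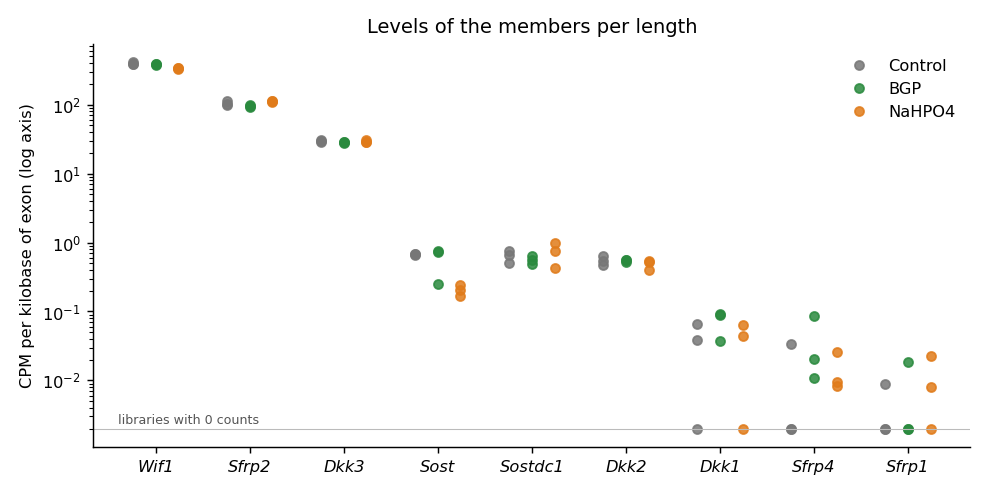
Level of each member in CPM per kilobase of exon on a log axis, a point for each of the 9 libraries, colored by condition; libraries with 0 counts are drawn on the line at the bottom. *Wif1*, *Sfrp2* and *Dkk3* stand apart at the top, and the 3 NaHPO4 points of *Sost* lie below those of *Sostdc1* and *Dkk2*.

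Positions are those of GRCm39. *Sost* is a 2-exon gene on the minus strand of chromosome 11 from 101853284 to 101857847, *Wif1* a 10-exon gene on the plus strand of chromosome 10 from 120869865 to 120936555, and *Sfrp2* a 3-exon gene on the plus strand of chromosome 3 from 83673481 to 83681623. The 250 bases before the start of the canonical transcript are printed 5′ to 3′ in the direction of the gene for these genes, since they are the members that passed a test in at least 1 comparison. They are chr11:101857848-101858097 on the minus strand, chr10:120869615-120869864 on the plus strand and chr3:83673231-83673480 on the plus strand. Capitals mark matches to any of 6 motifs, searched on both strands.
Sost: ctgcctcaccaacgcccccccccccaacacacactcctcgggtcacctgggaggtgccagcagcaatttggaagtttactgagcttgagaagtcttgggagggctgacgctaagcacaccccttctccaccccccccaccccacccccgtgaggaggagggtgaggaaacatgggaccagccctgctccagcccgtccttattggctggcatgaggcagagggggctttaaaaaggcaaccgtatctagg
Wif1: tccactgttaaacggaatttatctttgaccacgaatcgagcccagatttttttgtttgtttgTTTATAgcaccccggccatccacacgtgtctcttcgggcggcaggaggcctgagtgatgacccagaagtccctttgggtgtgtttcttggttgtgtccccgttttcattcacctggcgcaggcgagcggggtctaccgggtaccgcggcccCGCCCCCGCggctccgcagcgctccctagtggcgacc
Sfrp2: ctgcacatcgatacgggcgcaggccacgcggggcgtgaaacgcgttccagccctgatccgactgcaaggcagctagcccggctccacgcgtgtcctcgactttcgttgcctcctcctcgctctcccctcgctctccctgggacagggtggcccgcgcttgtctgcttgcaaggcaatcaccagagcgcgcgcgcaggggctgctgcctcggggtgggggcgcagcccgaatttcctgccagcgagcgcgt
The promoter of *Sost* held 6 CpG dinucleotides, an observed to expected ratio of 0.26, against 20 and 0.94 for *Wif1* and 28 and 0.95 for *Sfrp2*. The median ratio over 21770 promoters of protein-coding genes was 0.47, so that the promoters of both strongly expressed genes lay above it and that of *Sost* below. *Dkk3*, the other strongly expressed member, had a ratio of 0.29.

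The letters CTTTGAA, bound by the TCF/LEF factors that work with β-catenin, occurred in 4.84% of the 21770 promoters, and the variant CTTTGAT in 2.86%. The RUNX motif TGTGGT was in 13.0% and the AP-1 motif TGANTCA in 6.17%. The EGR motif GCGNGGGCG was in 4.48% and the TATA box TATAAA in 11.9%. The *Wif1* promoter matched the EGR motif on the minus strand from base -37 to -29 before the start, and TATAAA on the minus strand from -188 to -183. None of these letters was found in the window of *Sost* or of *Sfrp2*. Among the other members, *Dkk2* matched TATAAA on its own strand at -22 to -17, and *Dkk1* matched TGTGGT and TATAAA on the minus strand. These matches are descriptions of the sequence and were not tied to the measurements.

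The first comparison asked what inorganic phosphate did to the antagonists. NaHPO4 lowered *Sost* by 68.9% and *Wif1* by 15.6% relative to Control, and no tested member passed the test as higher. These were 2 of the 6 members with enough counts to be tested, where 7.38% of all 13679 tested genes passed in either direction and 3.95% passed as lower (edgeR quasi-likelihood test, adjusted p below 0.05). Only *Sost* also passed the minimum log2 fold change of 0.5 that the study set for differentially expressed genes (DEGs), against 0.716% of tested genes.

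*Sost* had 30, 31 and 36 counts in the Control libraries and 14, 12 and 9 in the NaHPO4 libraries. In CPM these were 1.40, 1.35 and 1.42 against 0.510, 0.421 and 0.351. Every NaHPO4 library was below every Control library, a separation seen in either direction for 23.2% of all tested genes, and the means were 1.39 ± 0.0360 and 0.427 ± 0.0792 CPM. The log2 fold change was -1.68 with a standard error of 0.38, a 95% confidence interval from -2.45 to -0.92 and an adjusted p of 0.002718. Of the 13679 tested genes, 2 had a lower log2 fold change in this comparison. The exact permutation test over libraries gave a two-sided p of 0.1, the smallest that 3 against 3 libraries allow. The change rests on 97 counts in all in Control and 35 in NaHPO4, with exact Poisson intervals of 78.7 to 118 and 24.4 to 48.7 that cover counting error only.

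*Wif1* showed the opposite combination, a small change measured very precisely. Its levels were 984, 980 and 1033 CPM in Control and 858, 817 and 853 CPM in NaHPO4, without overlap. The log2 fold change was -0.25 with a standard error of 0.032 and an adjusted p of 7.604e-07. Its raw counts of 21047, 22516 and 26241 in Control and 23569, 23263 and 21858 in NaHPO4 did overlap, so the difference appears only once depth is divided out. It was there with total counts alone, at 972 to 1023 CPM in Control and 824 to 867 CPM in NaHPO4. In bulk RNA, fewer cells expressing a gene and less RNA per cell cannot be told apart.

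**Figure D2:**
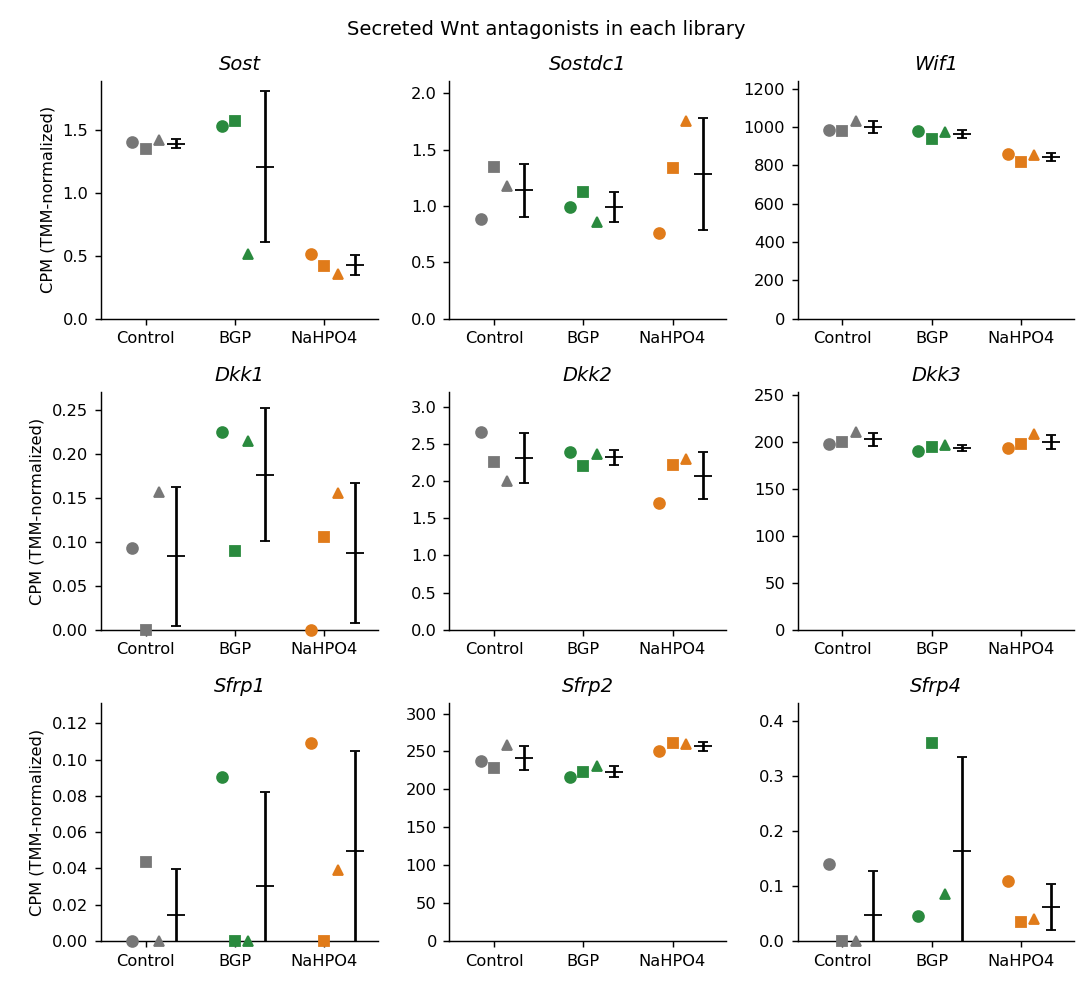
CPM after TMM scaling of the 9 members, each on its own linear axis from 0; circles, squares and triangles are replicates 1, 2 and 3, and the bar beside them is mean ± SD over 3 libraries, cut at 0. The 3 NaHPO4 points of *Sost* and *Wif1* lie below all Control points, and BGP replicate 3 of *Sost*, at 0.516 CPM, lies far below the other BGP points.

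The other tested members gave no call with NaHPO4. *Sfrp2* was at 237, 228 and 259 CPM in Control and 250, 261 and 260 CPM in NaHPO4, which overlapped, with a log2 fold change of 0.09 and an adjusted p of 0.1706. Without Control replicate 3 the same gene passed, at 0.14 with an adjusted p of 0.02097, and without Control replicate 2 it was at 0.051 with 0.546. *Dkk3* was at 198, 200 and 211 CPM in Control and 194, 198 and 209 CPM in NaHPO4. Its log2 fold change of -0.02 had a confidence interval from -0.094 to 0.052. The counts of this abundant gene thus held its change to a narrow interval.

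*Sostdc1* and *Dkk2* were too weakly expressed for comparable precision. *Sostdc1*, whose product binds LRP co-receptors and bone morphogenetic proteins, had 19, 31 and 30 counts in Control and 21, 38 and 45 in NaHPO4. Its log2 fold change was 0.16 with an interval from -0.47 to 0.80, so that the relative of *Sost* did not share a fall of the size seen for *Sost*, whose estimate of -1.68 lies outside that interval. *Dkk2* had 57, 52 and 51 counts in Control and 47, 63 and 59 in NaHPO4, with a log2 fold change of -0.15 and an interval from -0.58 to 0.28.

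**Figure D3:**
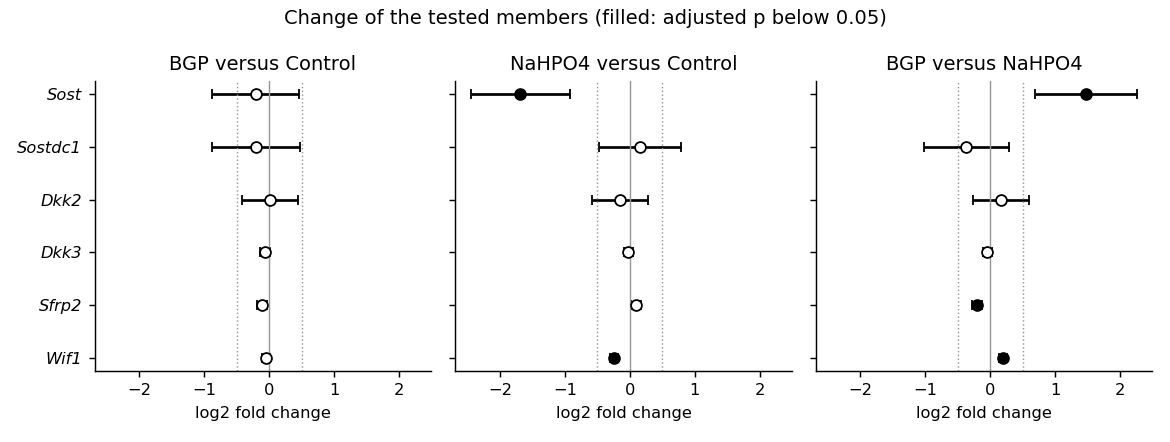
Log2 fold change of the 6 tested members in the 3 comparisons, with 95% confidence intervals; filled points passed an adjusted p of 0.05 and dotted lines mark a log2 fold change of 0.5 in either direction. *Sost* is the sole member beyond the dotted lines with a filled point, at -1.68 for NaHPO4 versus Control and 1.48 for BGP versus NaHPO4.

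The second comparison asked the same of organic phosphate. With BGP, 0 of the 6 tested members passed the edgeR test, where 2.53% of all tested genes passed, and DESeq2 and limma also gave 0. At an unadjusted p below 0.05 there was 1 member, *Sfrp2*, where 13.4% of tested genes reached that level. *Sfrp2* was at 216, 223 and 231 CPM in BGP, its log2 fold change from Control was -0.11 with a standard error of 0.039, and its adjusted p was 0.1419. This value varied with the library left out. Without Control replicate 2 it was -0.15 with an adjusted p of 0.04388, and without Control replicate 3 it was -0.058 with an adjusted p of 0.6066.

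*Sost* had 34, 35 and 12 counts in the BGP libraries, or 1.53, 1.57 and 0.516 CPM. BGP replicates 1 and 2 were above all Control libraries, and BGP replicate 3 was below all of them and close to the highest NaHPO4 library at 0.510 CPM. The exact Poisson interval of the 12 counts, 6.2 to 21, did not reach those of the other BGP libraries, 23.5 to 47.5 and 24.4 to 48.7. The log2 fold change from Control was -0.21 with an interval from -0.88 to 0.46 and an adjusted p of 0.8523. It turned to 0.16 with an adjusted p of 0.9052 without BGP replicate 3, and neither value passed. The interval leaves out a fall as large as that seen with NaHPO4.

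BGP replicate 3 did not stand apart over all tested genes. Its root mean square deviation from the group mean was 0.177 on the log2 scale, against 0.165 to 0.182 for the other libraries. Of the other osteocyte markers, it had the lowest *Dmp1* and the highest *Pdpn* of the 3 BGP libraries, and *Fgf23*, *Phex* and *Mepe* lay between the other BGP libraries. *Dmp1*, a matrix protein of osteocytes, was at 597, 542 and 515 CPM in the 3 BGP libraries against 67.0 to 87.4 CPM in Control. *Fgf23*, the phosphate-regulating hormone of osteocytes, was at 10.2, 7.41 and 7.52 CPM in BGP against 0.914 to 1.61 CPM in Control. *Phex*, an endopeptidase gene mutated in phosphate wasting, was at 45.5, 38.1 and 41.2 CPM and *Mepe*, a matrix protein gene, at 3.20, 3.73 and 3.395 CPM in BGP. *Dmp1* and *Fgf23* rose with BGP, with log2 fold changes of 2.86 and 2.78 and adjusted p-values of 1.203e-28 and 1.067e-12, and *Phex* rose by 0.26 with an adjusted p of 0.0333. *Mepe*, *Pdpn* and *Sost*, the other 3 of the 6 osteocyte markers, did not pass. With NaHPO4, *Dmp1* rose by 2.19 on the log2 scale with an adjusted p of 3.887e-25 and *Sost* fell, while *Fgf23* (0.35, adjusted p 0.4956), *Phex*, *Mepe* and *Pdpn* did not pass.

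*Wif1* at 979, 939 and 972 CPM and *Dkk3* at 191, 195 and 197 CPM in BGP lay just below their Control libraries without overlap, and 18.5% of all tested genes had groups that did not overlap in this comparison. This separation depended on the scaling. With total counts *Wif1* overlapped, at 972.37 CPM in BGP replicate 1 and 972.2 in Control replicate 2. In the TMM-scaled signal of the authors both genes overlapped. Their log2 fold changes of -0.05 and -0.07 had adjusted p-values of 0.5102 and 0.4573. *Sostdc1* had 22, 25 and 20 counts and *Dkk2* 53, 49 and 55 counts in BGP. Both overlapped with Control, with log2 fold changes of -0.21 and 0.01 and intervals from -0.88 to 0.47 and from -0.42 to 0.45.

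The third comparison set the phosphates against each other at the same dose and time. BGP is a glycerol ester of phosphate, while NaHPO4 supplies the free ion. The paper describes rapid release of inorganic phosphate from BGP by alkaline phosphatase, so the BGP cultures may have held both forms. *Sost* and *Wif1* were higher and *Sfrp2* was lower with BGP than with NaHPO4, which makes 3 of 6 tested members, where 5.38% of all tested genes passed. All 3 comparisons draw on the same 9 libraries, so that this one is not independent of those with Control.

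The log2 fold change of *Sost* was 1.48 with a standard error of 0.39, an interval from 0.69 to 2.26 and an adjusted p of 0.01545, and 10 of the 13679 tested genes had a higher one. It was also the only member past the minimum fold, as were 0.585% of tested genes. The groups did not overlap in CPM, like those of 21.2% of tested genes, but BGP replicate 3 at 0.516 and NaHPO4 replicate 1 at 0.510 nearly touched, and in raw counts they were 12 and 14. The call depended on single libraries. It was lost without BGP replicate 1 (1.26, adjusted p 0.1266), BGP replicate 2 (1.24, adjusted p 0.1329), NaHPO4 replicate 2 (1.46, adjusted p 0.06158) or NaHPO4 replicate 3 (1.36, adjusted p 0.07835). Without BGP replicate 3 the log2 fold change was 1.84. The fall from Control to NaHPO4, in contrast, passed with any library left out.

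**Figure D4:**
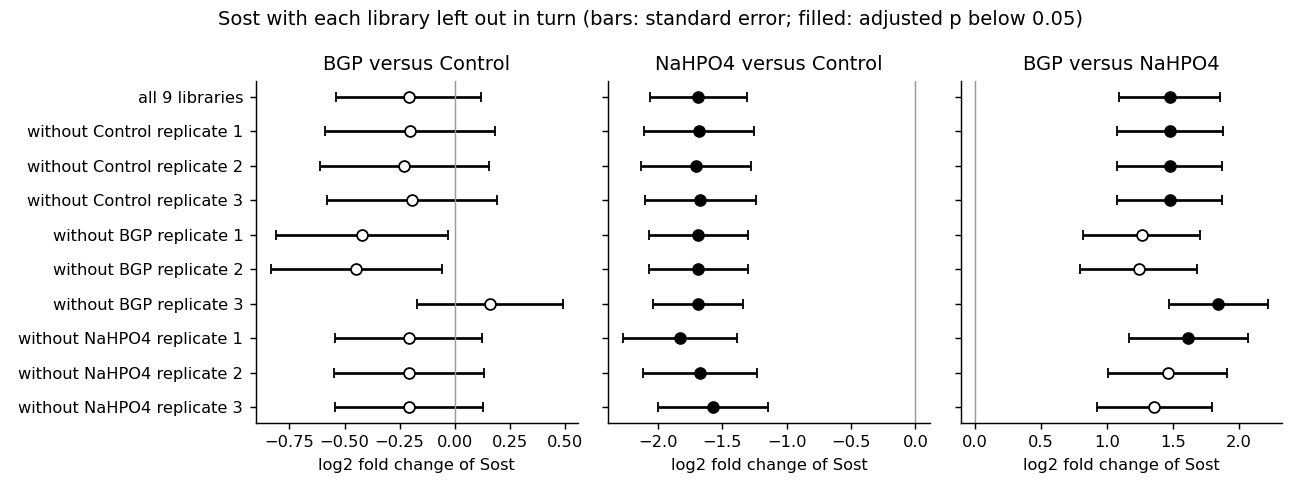
Log2 fold change of *Sost* with all 9 libraries and with each left out in turn, in the 3 comparisons, each on its own axis; bars are standard errors and filled points passed an adjusted p of 0.05. All points are filled for NaHPO4 versus Control, between -1.83 and -1.57, none for BGP versus Control, and 4 of the 9 points with a library left out are open for BGP versus NaHPO4.

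*Wif1* was higher with BGP than with NaHPO4 by 0.19 on the log2 scale (standard error 0.032, adjusted p 8.05e-05). *Sfrp2* was lower with BGP by 0.20 (log2 fold change -0.20, standard error 0.039, adjusted p 0.0005858). For *Sfrp2* the 3 BGP libraries, 216 to 231 CPM, lay below the 3 NaHPO4 libraries, 250 to 261 CPM, and the Control libraries, 228 to 259 CPM, spanned the gap between them. Neither phosphate moved *Sfrp2* past the test from Control, so with all 9 libraries the difference between the phosphates was the only call for this gene. *Sostdc1*, *Dkk2* and *Dkk3* gave log2 fold changes of -0.37, 0.16 and -0.04 with intervals from -1.02 to 0.28, from -0.27 to 0.59 and from -0.12 to 0.029.

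*Sfrp2* carries a limit of annotation. An antisense long noncoding RNA, *Gm26771*, shares 484 exon bases with it. Of the 50-base windows of the *Sfrp2* transcript, 20.6% also occur in other genes, against at most 1.41% for every other member. Windows were matched on either strand, so this share includes the overlap with *Gm26771* and is not a separate limit. The kit keeps strand, but whether strand was used in counting is not given in the sources used here. *Gm26771* had 148 counts in Control, 107 in BGP and 110 in NaHPO4, where *Sfrp2* had 16891, 15135 and 20965, and its own log2 fold changes did not pass in any comparison.

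*Dkk1*, *Sfrp1* and *Sfrp4* did not pass the filter on low counts. *Dkk1*, the best known Dickkopf antagonist, had 2, 0 and 4 counts in Control, 5, 2 and 5 in BGP and 0, 3 and 4 in NaHPO4. *Sfrp4*, mutated in a disorder of cortical bone, had 3, 0 and 0 counts in Control, 1, 8 and 2 in BGP and 3, 1 and 1 in NaHPO4. *Sfrp1* had at most 3 counts in any library and 0 counts in 5 of the 9. Each of the conditions overlapped for all 3 genes. A library with 0 counts allows a level of up to 0.105 to 0.140 CPM, taken as 3 counts, which covers counting error only. Fitted without the filter among 24582 genes, none of their comparisons passed, with adjusted p-values from 0.7535 to 1.

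The genes beside *Sost* on chromosome 11 were looked at after these values were seen. *Dusp3*, a phosphatase gene 4122 bases away, was at 15.8 ± 1.43 CPM in Control, 14.4 ± 1.04 in BGP and 13.9 ± 0.536 in NaHPO4, and its log2 fold change of -0.18 with NaHPO4 had an adjusted p of 0.2317. *Meox1*, 68057 bases away on the other side, had 1, 1 and 4 counts per condition.

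The genes whose log2 CPM followed a member most closely were taken from 12078 genes over the 9 libraries, as a description. For *Sost* they were *Socs2* (Pearson's r = 0.967), an inhibitor of cytokine and growth hormone signaling, *Irf2bp2* (0.962) and *Ppp1r37* (0.959). For *Wif1* they were *Bmp1* (0.974), the protease that matures procollagen, *Ltbp4* (0.974) and *Gpr153* (0.971). For *Sfrp2* they were *Rpa1* (0.979), *Ckap2* (0.963) and *Ifitm2* (0.956). The points share libraries and depth, and r was the highest of many. All genes named for *Sost* and *Wif1* were themselves lower with NaHPO4 than Control at an adjusted p below 0.05. Those named for *Sfrp2* were lower with BGP than with NaHPO4 at the same threshold. The values of r thus include the difference between conditions.

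Other genes of the pathway were described by lists. Of 7 other secreted antagonists, 2 were tested and 0 passed in any comparison. *Notum*, an enzyme that inactivates Wnt ligands by removing their lipid, was at 21.8 ± 1.45 CPM in Control, 20.6 ± 2.74 in BGP and 19.5 ± 1.55 in NaHPO4. Of 6 tested membrane antagonists and antagonist co-receptors, *Lrp4* was the only one to pass, and it fell with NaHPO4. *Lrp4*, which presents sclerostin to its targets, was at 671 ± 13.7 CPM in Control, 638 ± 8.83 in BGP and 577 ± 24.6 in NaHPO4, a log2 fold change of -0.22 with an adjusted p of 1.057e-05 for NaHPO4 versus Control. Of all tested genes, 3.95% passed as lower with NaHPO4. *Lrp4* was lower in the same libraries as *Sost*, and a link between them was not tested.

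Wnt ligands, the targets of WIF1 and the secreted frizzled-related proteins, gave the most calls of the pathway lists with NaHPO4. Of 10 tested ligands, 4 were lower (*Wnt6*, *Wnt10a*, *Wnt10b* and *Wnt4*) and 1 was higher (*Wnt7b*), where 3.95% and 3.43% of all tested genes passed in these directions. The median log2 fold change of the list was -0.18 and that of all tested genes was 9.75e-05. *Wnt6* fell from 68.8 ± 1.72 CPM in Control to 57.9 ± 4.45 in NaHPO4, a log2 fold change of -0.25 with an adjusted p of 0.000715. *Wnt10b*, which favors osteoblasts over fat cells, fell from 51.2 ± 2.54 to 44.5 ± 0.944 CPM with an adjusted p of 0.007327. *Wnt7b* rose by 1.78 on the log2 scale with an adjusted p of 0.02854, from 14 counts over the Control libraries to 57 over the NaHPO4 libraries. With BGP, *Wnt6* was the only ligand that passed, with a log2 fold change of -0.19 and an adjusted p of 0.03444, and 0 of 10 differed between BGP and NaHPO4.

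Receptors and signaling components come next in the pathway. With NaHPO4, *Lrp5*, the co-receptor that sclerostin blocks, and *Fzd8* were lower among 13 tested receptors, and *Ctnnb1*, which encodes β-catenin, was lower among 13 intracellular components, where 3.95% of all tested genes passed as lower. The log2 fold changes were -0.15 for *Lrp5* (adjusted p 0.007346), -0.19 for *Fzd8* (adjusted p 0.008686) and -0.14 for *Ctnnb1* (adjusted p 0.001446). *Lrp6* was at 157 ± 4.99 CPM in Control and 165 ± 3.98 in NaHPO4 and did not pass. With BGP versus Control, 0 receptors and 0 intracellular components passed by edgeR. *Lrp5* and *Ctnnb1* were higher with BGP than with NaHPO4. Of the R-spondins and their receptors, 4 were tested, and *Rspo2*, which encodes an enhancer of Wnt signaling, was lower with BGP than with NaHPO4 by a log2 fold change of -0.47 with an adjusted p of 0.01086.

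Targets of the pathway gave no call against Control. Of 10 tested target genes, 0 passed with NaHPO4 and 0 with BGP, and *Ccn4* was the only one that differed between the phosphates, by 0.13 with an adjusted p of 0.03371. *Axin2*, the usual readout of β-catenin activity, was at 115 ± 3.07 CPM in Control, 110 ± 8.77 in BGP and 105 ± 3.54 in NaHPO4, and its log2 fold change of -0.13 with NaHPO4 had an adjusted p of 0.06526.

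**Figure D5:**
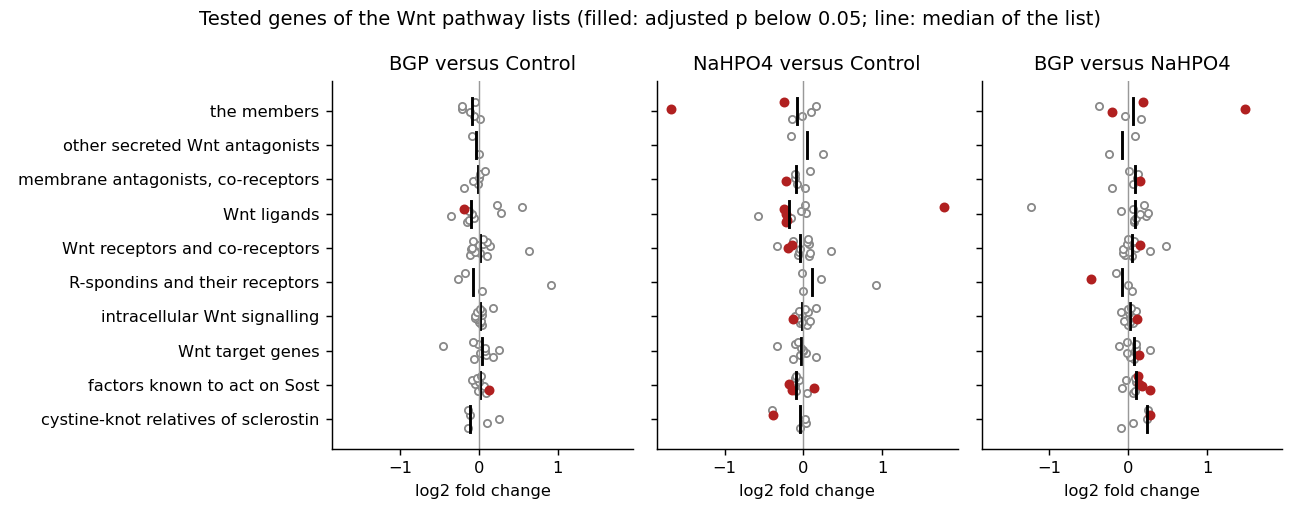
Log2 fold change of every tested gene of 10 lists of the Wnt pathway and its surroundings in the 3 comparisons; filled points passed an adjusted p of 0.05, open points did not, and the vertical line is the median of the list. With NaHPO4 versus Control the filled points lie left of 0 except for *Wnt7b* at 1.78 and *Mef2c* at 0.13, and *Sost* at -1.68 is the lowest point.

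Of 10 genes known to act on *Sost*, the parathyroid hormone receptor gene *Pth1r* and *Mef2a* were lower with NaHPO4 than Control, and *Mef2c* was higher. Of all tested genes, 3.95% passed as lower and 3.43% as higher in this comparison. MEF2 factors drive *Sost* through a distant enhancer, and parathyroid hormone represses the gene. *Mef2a* was at 306 ± 2.51 CPM in Control, 335 ± 10.2 in BGP and 277 ± 9.70 in NaHPO4, so that it rose with BGP (log2 fold change 0.13, adjusted p 0.02762) and fell with NaHPO4 (-0.14, adjusted p 0.005524). *Mef2c* was at 150 ± 3.85 CPM in Control and 164 ± 7.84 in NaHPO4 (0.13, adjusted p 0.02878), the opposite direction. Between the phosphates, *Mef2a*, *Mef2d*, *Pth1r* and *Sp7* were higher with BGP, where 5.38% of all tested genes passed in either direction. A link of these genes to the change of *Sost* was not tested. Of the 5 cystine-knot relatives of sclerostin, which include BMP antagonists, *Nbl1* fell with NaHPO4 by 0.38 on the log2 scale with an adjusted p of 6.904e-10, and the other 4 did not pass in any comparison.

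Some markers of the cell state moved with the fall of *Sost* and *Wif1*. With NaHPO4, 5 of 8 osteoblast markers were lower (*Col1a1*, *Col1a2*, *Alpl*, *Bglap* and *Bglap2*), where 3.95% of all tested genes passed as lower, and the list summed to 97080 to 103900 CPM against 110100 to 117100 CPM in Control. Most of that sum came from *Col1a1* and *Col1a2*, at 43280 and 56380 CPM in Control. *Ibsp* (log2 fold change -0.028, adjusted p 0.6638), *Sp7* and *Runx2* did not pass. The log2 fold change of *Col1a1* was -0.22 with an adjusted p of 2.47e-05, about the size of that of *Wif1*. In BGP the list summed to 107000 to 113200 CPM and 0 of its 8 members passed by edgeR. Of the markers of other cells, *Ctsk* and *Col2a1* were also lower with NaHPO4, and *Col2a1* rose with BGP by 0.50 on the log2 scale with an adjusted p of 0.000754. *Sox9*, with 2836, 2810 and 3163 counts over the Control, BGP and NaHPO4 libraries, *Csf1r*, with 63, 68 and 63 counts, and *Fabp4*, with 956, 909 and 978 counts, did not pass in either. The part of these markers in the results for the antagonists was not tested. None of the listed genes that passed changed its direction when libraries were scaled by size factors or total counts, and with total counts 6 of 6 still passed for BGP versus Control, 22 of 23 for NaHPO4 versus Control and 18 of 21 for BGP versus NaHPO4.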

How the data were processed

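RNA sequencing counts of MC3T3-E1 cells (Control, BGP, NaHPO4; 3 libraries each) were re-analysed. The authors deposited a table of raw counts per Ensembl gene and a table of TMM-scaled signal, in which the counts of each library are multiplied by 1 factor between 1.01 and 1.32; per the labels FastQC, edgeR and GRCm39 were used, and the methods name the AIR software. The aligner, the counter and the use of strand are not given in the sources used here, so reads of overlapping genes may have been assigned to either.

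Groups came from the sample labels. Counts were filtered with filterByExpr of edgeR 4.0.16 (count minimum 10), which kept 13679 of 55416 genes, scaled by TMM and fitted with glmQLFit over all 9 libraries. Comparisons used glmQLFTest with Benjamini-Hochberg adjustment, and standard errors came from the F statistic. The procedure was tested on simulated data, but the settings and outcome of that test are not reported here. Depth was 21390839 to 28234404 counts per library, so genes under about 1 CPM rest on few counts. Libraries of a group differed beyond sampling noise (chi-square per degree of freedom 2.61 to 4.85), so none was treated as 1 library deposited again, which leaves technical replicates possible. Alternatives were DESeq2 1.42.0, limma 3.58.1 on log2(signal + 1), other scalings, filters and thresholds, a fit of only the groups compared, a replicate block and each library left out.

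Gene lengths, positions and promoters came from GENCODE vM39 on GRCm39, the build of the files but another release, which held 54749 of the gene IDs and all 9 members. R 4.3.3, Python 3.11.15, pandas 2.3.3 and matplotlib 3.10.9 were used. All 9 members are named. Of the lists, genes past an adjusted p of 0.05 are named, at most the 4 with the smallest p in each list and comparison. *Wnt4* is an exception, named in addition to these 4 among the ligands for NaHPO4 versus Control. Marker genes, neighbors of *Sost*, *Gm26771*, *Notum*, *Lrp6* and *Axin2* were named after their values were seen. Likeness covers the 3 members with the smallest adjusted p. The members and lists were chosen with earlier results of these data known. Sequences of the proteins were not used here.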

Additional observations from a re-analysis of the deposited data

How the results depend on the processing

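Each of the 18 log2 fold changes of the tested members was recomputed in 16 or 17 alternative fits, which gave 303 alternative values. Direction and call were kept in 288 of these values. The values share fits and libraries, so they are not independent checks. *Sost* for NaHPO4 versus Control passed in all 16 fits that tested it (adjusted p 0.0001145 to 0.02121), and *Wif1* passed in all 17 (4.566e-14 to 6.55e-05). Requiring at least 10 counts in every library removed *Sost*, which had 9 counts in NaHPO4 replicate 3, and left 12502 genes. The members past the test for NaHPO4 versus Control then numbered 1, and those also past the minimum fold 0, as for BGP versus NaHPO4, where an adjusted p below 0.01 gave 0 too.

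With 1 library left out, members past the test for BGP versus Control ranged from 0 to 1, and members past the test and the minimum fold for BGP versus NaHPO4 from 0 to 1. Signs of uncalled members turned in some of these fits. *Sost* for BGP versus Control ranged from -0.45 to 0.16 and was 0.16 without BGP replicate 3. *Dkk2* for BGP versus Control ranged from -0.085 to 0.12 and was -0.00060, -0.085, -0.011 and -0.0032 without Control replicate 2, Control replicate 3, BGP replicate 1 and BGP replicate 3. *Sostdc1* for NaHPO4 versus Control ranged from -0.12 to 0.43 and was -0.12 without NaHPO4 replicate 3. *Dkk3* for NaHPO4 versus Control ranged from -0.052 to 0.0087, at 0.0087 without Control replicate 3 and 0.00057 without NaHPO4 replicate 1, and was 0.0037 with total counts. The cause was not tested.

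Replicate numbers are shared by the conditions, but same-numbered libraries did not deviate together (mean r 0.0127, 0 of 9 pairs over 0.1). With the replicate number as a block, 0, 2 and 3 members passed in BGP versus Control, NaHPO4 versus Control and BGP versus NaHPO4, as without it, and *Sost* was at -1.72 (adjusted p 0.001781) for NaHPO4 versus Control. Taking the longest transcript as length moved levels per kilobase by at most 13.2%. Depth limits *Sost*, *Sostdc1* and *Dkk2*, at 9 to 63 counts per library, and left *Dkk1*, *Sfrp1* and *Sfrp4* untested.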
